A study of Mus musculus with 51 samples.

Results

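The genes considered here encode 8 proteins by which astrocytes are commonly recognised, among them enzymes, transporters and surface proteins. The genes are Aldh1l1, Aldoc, S100b, Mlc1, Hepacam, Ndrg2, Slc4a4 and Atp1b2. They are 8 of the 22359 coding genes of the mouse annotation, and every peak of 2 histone marks that overlapped the mm9 gene body of one of them, extended by 10 kb on each side, was taken. This gave 581 of the 803595 peaks on the assembled chromosomes. The rule that took the peaks used positions only and no measured level.

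The study followed mouse embryonic stem cells of C57/BL-6 background through astrogliogenesis in vitro. Astrogliogenic neural progenitors (aNPC) were grown with N2, EGF and FGF-2, early astrocytes (eA) were taken after 1 day and late astrocytes (lA) after 5 days in DMEM with 1% FBS and LIF. ChIP-seq of H3K27ac and H3K4me1 was made with 2 replicates at each of these stages, and the reads of both replicates were merged before peaks were called, so that each mark and stage has 1 list. The labels name no siRNA for these samples, and the knockdown ChIP-seq and the RNA-seq were not analysed here.

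H3K27ac marks active promoters and enhancers, and H3K4me1 marks enhancers whether primed or active. The 8 genes serve the work of a mature astrocyte, which runs glycolysis and folate metabolism, buffers potassium and bicarbonate around synapses, and seals vessels with its endfeet. Several of them are already transcribed in the radial glia of the developing brain, the progenitors from which astrocytes arise.

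Lists with no separate replicates carry no error between cultures, and no test between stages was possible. The depth of the merged libraries is unknown here, so the −log10 q of a peak, which grows with depth, was not compared between lists. Beside it stands the percentile of the peak in its own list, in which 100 would be the strongest peak. A missing peak means that none was called at that depth and not that the mark was absent, and a bulk list cannot tell fewer marked cells from less mark per cell. The lists held 79413 to 92700 H3K27ac peaks and 154238 to 208333 H3K4me1 peaks. Among marker genes, promoter H3K27ac was found in lA at 5 of 5 astrocyte genes (Gfap, Slc1a3, Slc1a2, Gja1 and Sox9) and at 4 of 4 progenitor genes (Nes, Sox2, Pax6 and Vim). It was found in lA at 1 of 4 neuronal genes and at 0 of 3 pluripotency, 0 of 4 oligodendrocyte, 0 of 3 microglial and 0 of 3 endothelial and mesenchymal genes. Across all coding genes 48.2% had it in lA. In aNPC it was already found at 4 of the 5 astrocyte genes, 4 of 4 progenitor genes and 2 of 4 neuronal genes. The progenitor promoters therefore kept the mark beside the astrocyte promoters in the cells called late astrocytes.

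H3K27ac already lay at the promoters of 7 of the 8 genes in aNPC, the promoter being taken from 1 kb before a coding start to 100 bp after it. Across all coding genes 50.6% had such a peak in aNPC. At both later stages 6 of the 8 members had one, against 53.2% and 48.2% of coding genes. The same 6, Aldoc, Mlc1, Hepacam, Ndrg2, Slc4a4 and Atp1b2, had it at all 3 stages, against 45.2% of coding genes. None of the 8 had a promoter peak in lA that was missing in aNPC, a pattern of 2.66% of coding genes. S100b had promoter H3K27ac in aNPC alone, and Aldh1l1 had none at its coding starts at any stage. When 1 kb on each side of any annotated start was taken instead, noncoding transcripts included, the members with H3K27ac numbered 8, 7 and 7. The addition was Aldh1l1, by peaks about 15.4 kb past its coding starts (−log10 q 5.06, 41.8 and 11.6) that lie beside the start of a noncoding transcript. When the summit itself had to lie in the promoter, 4, 4 and 3 members had H3K27ac, and Aldoc and Ndrg2 had it at all 3 stages.

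H3K4me1 was found at 7, 6 and 6 member promoters at the stages aNPC, eA and lA, against 55.4%, 53.6% and 52.7% of coding genes. The member without it in aNPC was Aldh1l1, and Aldoc in eA and Hepacam in lA were further exceptions. Atp1b2 counted in eA and lA through its inner coding start alone. With all coding starts of a gene pooled, no member had promoter H3K4me1 without promoter H3K27ac in aNPC, the arrangement called priming, which 11.8% of coding genes showed. Taken alone, 1 inner start of Slc4a4 had it.

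**Figure D1:**
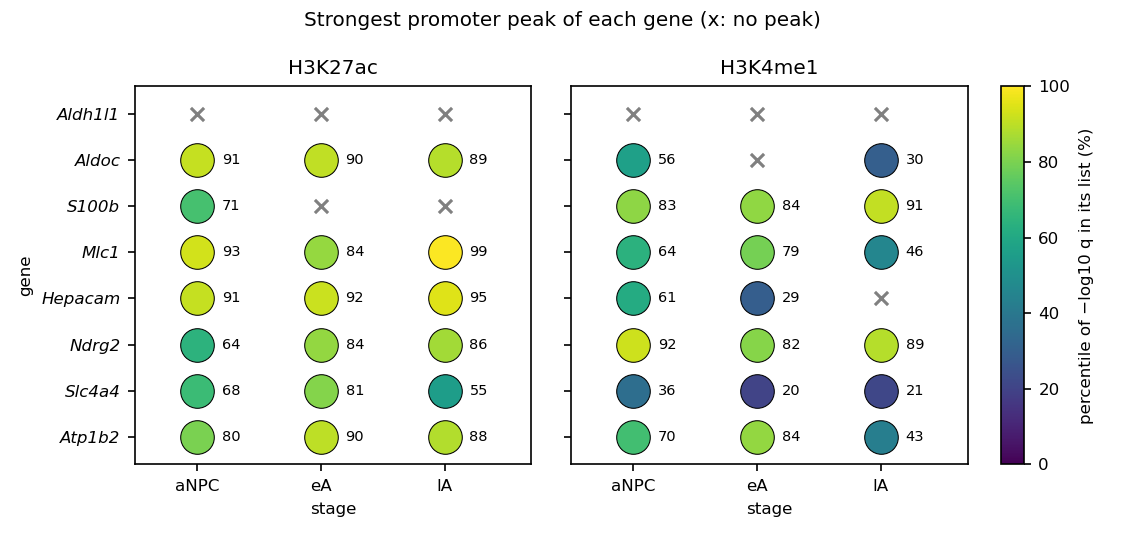
Strongest promoter peak of each gene (rows) at each stage (columns) for H3K27ac (left) and H3K4me1 (right), coloured and labelled by the percentile of its −log10 q in its own list, with a cross where no peak was called. Aldh1l1 has no promoter peak in any list, and S100b has H3K27ac in aNPC alone. For Mlc1 in eA the upstream peak is shown (percentile 84.2), since the stronger peak inside the gene (percentile 99.6) ends just outside the promoter.

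The sequence upstream of these starts differed widely between members, and the 200 bp before the outermost coding start of 4 of them are shown to give the range from a promoter with no CpG to one rich in CpG. All are from mm9 and read 5′ to 3′ on the strand of the gene. Capitals mark TTGGCA or its reverse complement TGCCAA, the core of an NF1 site.
Mlc1, minus strand, chr15:88809438-88809637: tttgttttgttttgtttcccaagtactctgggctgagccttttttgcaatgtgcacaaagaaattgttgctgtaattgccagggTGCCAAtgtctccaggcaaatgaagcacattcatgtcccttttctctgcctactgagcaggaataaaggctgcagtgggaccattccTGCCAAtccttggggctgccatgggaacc
Aldoc, plus strand, chr11:78136270-78136469: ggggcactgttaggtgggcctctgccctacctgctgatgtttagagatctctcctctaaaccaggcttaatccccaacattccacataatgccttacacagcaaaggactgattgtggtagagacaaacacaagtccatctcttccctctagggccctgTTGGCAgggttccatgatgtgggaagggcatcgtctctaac
S100b, plus strand, chr10:75716398-75716597: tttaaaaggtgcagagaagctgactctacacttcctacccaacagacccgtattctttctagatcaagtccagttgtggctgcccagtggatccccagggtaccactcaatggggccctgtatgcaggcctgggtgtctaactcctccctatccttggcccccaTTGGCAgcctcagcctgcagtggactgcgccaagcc
Slc4a4, plus strand, chr5:89315643-89315842: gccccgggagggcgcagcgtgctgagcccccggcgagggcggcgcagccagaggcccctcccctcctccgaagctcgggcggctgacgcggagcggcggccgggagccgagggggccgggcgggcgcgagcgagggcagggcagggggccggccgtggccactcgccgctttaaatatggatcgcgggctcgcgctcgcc

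These windows held 0 CpG dinucleotides in Mlc1, 1 in Aldoc, 2 in S100b and 30 in Slc4a4, whose window was 80% G or C. The windows of the others held 4 in Hepacam, 5 in Aldh1l1, 7 in Ndrg2 and 11 in Atp1b2. The median over 22359 coding genes was 7, so that 5 members lay below it, 1 at it and 2 above it. The NF1 core was found in the windows of Mlc1, Aldoc and S100b, 3 of the 8, and in 9.01% of the same windows of all coding genes. It was searched only after the study's longer consensus motifs had given no match. Of the cores searched with it, those of AP-1, RUNX and STAT were in 0 of the 8 windows. The letters of a core are a match and not a bound site.

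Aldoc encodes aldolase C, the brain form of a glycolytic enzyme. Its gene (ENSMUSG00000017390.9, chr11:78136470-78141283, plus strand) has 2 coding starts, and H3K27ac covered most of the stretch between them at every stage. The strongest peak spanned chr11:78136144-78137466 in aNPC (−log10 q 83.5, percentile 91.2), chr11:78136546-78137636 in eA (68.3, percentile 90.4) and chr11:78136647-78137595 in lA (30.2, percentile 88.7). It thus ranked about equally high in each list. In eA a second peak ended at 78136426, and the 119 bp between both held the outer start. H3K4me1 at the promoter had −log10 q 12.2 in aNPC (percentile 56.3) and 5.85 in lA (percentile 29.8), and no peak in eA. Just inside the gene, past the inner start, it had 26.2 in aNPC (percentile 84.02), 21.8 in eA (percentile 84.7) and 8.52 in lA (percentile 49.1). A downstream element, 4.6 kb past the inner start, had H3K27ac of 20.8, 60.2 and 5.76 at the stages in turn. It lies at the promoter of the neighbouring gene Pigs, which its aNPC and eA H3K27ac peaks overlap.

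Upstream of Aldoc the H3K27ac peaks changed place between stages. A peak with its summit at -1296 bp from the outer start was present in aNPC alone (−log10 q 12.3), and an element centred 0.7 kb upstream, at the promoter, had weak peaks in aNPC and eA (9.28 and 6.06). A region 3.8 kb upstream had H3K27ac in eA (11.9) and lA (23.2) and none in aNPC, and another 5 kb upstream had it in eA (5.51) and lA (13.2). Neither of these regions had an H3K4me1 peak in aNPC, and the nearer one had H3K4me1 in lA only. Both thus had neither mark in the lists of aNPC. The nearer one lies in the body of the neighbouring gene Spag5, and the 100 bp on each side of its lA summit are shown because it had the stronger lA peak of both regions (chr11:78132303-78132503, mm9, plus strand, no capitals because no motif core was found):
Aldoc, 3.8 kb upstream: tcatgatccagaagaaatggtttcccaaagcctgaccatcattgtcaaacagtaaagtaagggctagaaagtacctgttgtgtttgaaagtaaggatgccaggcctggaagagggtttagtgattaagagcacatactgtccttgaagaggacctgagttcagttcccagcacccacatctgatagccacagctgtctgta

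Aldh1l1 encodes 10-formyltetrahydrofolate dehydrogenase, an enzyme of folate metabolism and a widely used marker of all astrocytes. Its body in the annotation (ENSMUSG00000030088.9, chr6:90436421-90550197, plus strand) begins with a noncoding transcript, while its coding transcripts start at 90500783 and 90500799. No peak of either mark in any stage overlapped the promoter of these coding starts. The nearest H3K27ac peak to the outer start was 8.37 kb away at the aNPC stage, 7.94 kb at eA and 8.31 kb at lA. H3K4me1 came closer, with gaps of 135 bp at aNPC, 395 bp at eA and 388 bp at lA, all of them weak peaks inside the gene with −log10 q of 4.69, 5.00 and 4.37.

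Away from the promoter Aldh1l1 was densely marked, with 17, 23 and 21 H3K27ac peaks at the successive stages. The peaks of all lists merged into 39 elements, an element being a run of peaks that overlap by at least 1 bp. An element 16.3 kb upstream of the coding start, chr6:90483873-90485057, carried the strongest H3K27ac peak of the locus in aNPC, with −log10 q 243 and percentile 99.1. The same element had −log10 q 88.3 in eA and 46.4 in lA, and its H3K4me1 was modest at 10.23, 10.07 and 12.49. In eA and lA the strongest H3K27ac lay instead 10.0 kb upstream, in chr6:90490069-90491429, with −log10 q 177 (percentile 99.1) and 73.7 (percentile 98.5). This element also had H3K27ac in aNPC (47.8) and H3K4me1 at every stage (41.7, 29.5 and 19.1). The order of both elements within a list was therefore turned around between aNPC and the later stages. Another element 42.1 kb upstream held the strongest H3K4me1 of the locus at each stage, with −log10 q 61.6, 83.0 and 39.4, all above percentile 99. All 3 elements lie within an intron of the noncoding transcript.

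Of the Aldh1l1 elements, 9 had H3K27ac at every stage, 7 had it in lA and not in aNPC, and 3 in aNPC and not in lA. Among the 9, the element 54.3 kb downstream lies at the promoter of the neighbouring gene Slc41a3. The 7 late ones stood on both sides of the coding start, from 65.7 kb upstream to 47.2 kb downstream, and 5 of them had H3K4me1 in aNPC. The strongest lay 10.1 kb downstream of the start, in an intron (chr6:90510162-90511605), with H3K27ac of −log10 q 35.8 in eA and 34.2 in lA and no peak in aNPC. Its H3K4me1 was present throughout, with −log10 q 20.03 for aNPC, 21.4 for eA and 19.9 for lA. It was thus marked in progenitors before any H3K27ac was called there. The 100 bp on each side of its lA summit (chr6:90510872-90511072) and around that of the element 10.0 kb upstream (chr6:90490694-90490894) are shown as the sites with the strongest late and the strongest constant H3K27ac of the gene in lA (mm9, plus strand, no motif core):
Aldh1l1, 10.1 kb downstream: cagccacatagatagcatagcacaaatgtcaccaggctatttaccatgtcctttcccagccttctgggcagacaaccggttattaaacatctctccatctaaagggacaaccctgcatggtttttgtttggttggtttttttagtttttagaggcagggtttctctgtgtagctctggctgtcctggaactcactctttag
Aldh1l1, 10.0 kb upstream: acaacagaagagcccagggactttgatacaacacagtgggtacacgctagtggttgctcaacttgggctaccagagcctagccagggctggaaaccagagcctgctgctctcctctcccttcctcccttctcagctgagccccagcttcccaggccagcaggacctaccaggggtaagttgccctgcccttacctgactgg

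S100b encodes a calcium-binding protein that astrocytes hold in quantity and also release. Its gene (ENSMUSG00000033208.7, chr10:75716598-75723904, plus strand) was the only member that had promoter H3K27ac in aNPC and in no later list. Both aNPC peaks flanked the start with 294 bp between them, at chr10:75715881-75716388 (−log10 q 22.0, percentile 70.6) and chr10:75716683-75717052 (4.24, percentile 14.8). In eA and lA the nearest H3K27ac peaks were 3.55 and 3.56 kb from the start. H3K4me1 stayed at the promoter, with −log10 q 25.4 in aNPC (percentile 82.9), 21.0 in eA (percentile 83.5) and 23.4 in lA (percentile 90.8). The promoter thus went from both marks in aNPC to H3K4me1 alone in the lists of eA and lA.

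A second S100b element, 4.1 kb downstream of the start (chr10:75719885-75721465), had H3K27ac at each stage. Its −log10 q was 37.2 in aNPC (percentile 79.9), 22.2 in eA (percentile 72.4) and 7.62 in lA (percentile 45.8). These percentiles come from lists of different length and unknown depth. H3K4me1 there was 13.8, 20.5 and 19.95. No element of S100b had H3K27ac in lA and none in aNPC, and 7 of its 9 elements had H3K4me1 alone. H3K27ac peaks covered 9.01% of the locus in aNPC but 2.71% and 2.73% of it in eA and lA. The 100 bp on each side of the lA summit (chr10:75720823-75721023, mm9, plus strand) are shown because they are the remaining H3K27ac of the gene, and capitals mark an NF1 core (TGCCAA) and AACCACA, the reverse complement of the RUNX core TGTGGTT:
S100b, 4.1 kb downstream: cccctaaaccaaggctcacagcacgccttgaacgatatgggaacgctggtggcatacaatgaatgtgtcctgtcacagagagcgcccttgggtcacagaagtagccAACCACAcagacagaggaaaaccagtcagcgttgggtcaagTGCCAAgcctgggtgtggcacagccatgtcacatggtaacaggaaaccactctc

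Mlc1 encodes a membrane protein of astrocyte endfeet that is mutated in a leukodystrophy with cysts. The strong H3K27ac of its gene (ENSMUSG00000035805.7, chr15:88786314-88809437, minus strand) lay in 1 block around the start. In aNPC this was a single peak, chr15:88808058-88810155, with −log10 q 101 and percentile 93.2. In eA the block was 2 peaks, chr15:88808083-88809309 (222, percentile 99.6) inside the gene and chr15:88809739-88810419 (43.6, percentile 84.2) upstream, with 429 bp between them that held the start. In lA it was again 2 peaks, with −log10 q 98.7 (percentile 99.4) and 23.9 (percentile 84.1) and 391 bp between them. The stronger eA peak stood above percentile 99 of its list, as did the stronger lA peak. The start-site gap was seen in eA and lA and not in aNPC.

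H3K4me1 at Mlc1 was of middling rank, its strongest peaks standing at percentiles 72.5, 79.2 and 75.1 of the 3 lists. Beyond the block the locus had H3K27ac in eA only, in 4 elements with −log10 q of 3.55 to 4.35, at percentiles 7.595 to 17.64 of that list. Mlc1 and Hepacam had no element with a late H3K27ac peak and none that lost it after aNPC.

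Hepacam encodes GlialCAM, the adhesion protein that binds MLC1 and places it at cell contacts. Its gene (ENSMUSG00000046240.7, chr9:37174953-37194157, plus strand) had H3K27ac at its promoter and at a distal element in each list. The promoter peak had −log10 q 83.4 in aNPC (percentile 91.1), 77.6 in eA (percentile 92.1) and 47.4 in lA (percentile 95.2), with its summit 450 to 495 bp past the start. An element 7.8 kb upstream (chr9:37165727-37168678) matched it in strength, with H3K27ac of 73.7, 123 and 38.6 at the stages in turn and H3K4me1 of 36.2, 41.6 and 32.7. The remaining element with H3K27ac lay 8.6 kb downstream in an intron and was weaker, at 8.87, 15.1 and 19.03. At the promoter H3K4me1 was 13.9 in aNPC (percentile 61.2) and 5.87 in eA (percentile 29.4), and in lA the nearest such peak was 1.24 kb away. The 100 bp on each side of the lA summit of the upstream element (chr9:37166534-37166734, mm9, plus strand, no motif core) are shown as the strongest constant distal site of the gene:
Hepacam, 7.8 kb upstream: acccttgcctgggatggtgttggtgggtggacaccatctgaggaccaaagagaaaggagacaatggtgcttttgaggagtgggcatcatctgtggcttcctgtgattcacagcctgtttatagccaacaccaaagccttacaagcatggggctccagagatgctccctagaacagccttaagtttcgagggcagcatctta

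Ndrg2 encodes a cytoplasmic protein of the NDRG family that is abundant in astrocytes. Its gene (ENSMUSG00000004558.8, chr14:52524946-52533163, minus strand) had promoter peaks of both marks at every stage. The strongest H3K27ac peak had its summit 757 to 815 bp upstream of the start in all lists, with −log10 q 16.5 in aNPC (percentile 64.3), 42.1 in eA (percentile 83.7) and 26.2 in lA (percentile 86.02). The aNPC peak was 491 bp wide, the eA peak 1906 bp and the lA peak 1047 bp. These widths are of the strongest peak alone and depend on how the marked stretch was split. The promoter element was called as 3 separate peaks at the aNPC stage, 1 at eA and 2 at lA. All 3 of the aNPC stage lay between the ends of the eA peak, so the widths do not show that the marked stretch grew. H3K27ac peaks covered 4.28% of the locus in aNPC and 11.3% and 9.97% of it in eA and lA. Promoter H3K4me1 was 35.2 in aNPC (percentile 92.3), 20.1 in eA and 22.0 in lA. A late element 8.9 kb upstream had H3K27ac in eA (22.0) and lA (12.4) and H3K4me1 at all stages. Its H3K4me1 peaks in aNPC and eA reach the promoter of Rnase13, while its H3K27ac peaks do not. The lA H3K27ac summit lies in the body of Rnase13, so that the assignment of the element to Ndrg2 rests on distance alone.

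Slc4a4 encodes the sodium bicarbonate cotransporter NBCe1. Its gene is the longest of the members (ENSMUSG00000060961.8, chr5:89315843-89668678, plus strand), and with its flanks made up 69 of the 157 elements of all 8 loci. Its outer promoter, the CpG-rich one printed above, had a pair of H3K27ac peaks in aNPC and eA. The peak at the outermost start had −log10 q 19.7 in aNPC and 12.9 in eA, and none was called in lA. The peak about 0.5 kb further in had 14.5 in aNPC (percentile 61.2), 36.0 in eA (percentile 81.3) and 9.30 in lA (percentile 55.2). H3K4me1 just upstream of the outermost start was weak at every stage (4.72, 4.95 and 5.14), while the element of the inner peak, which reaches past the promoter into the gene, had H3K4me1 of 31.7, 23.2 and 13.3. The inner start at 89363557 had H3K4me1 in aNPC alone, and the innermost starts, 89456991 to 89457117, had no promoter peak of either mark.

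Slc4a4 had 6 elements with H3K27ac at every stage, 1 at the promoter and the others in introns. One 4.6 kb upstream of the inner start 89363557 (chr5:89357817-89360056) had H3K27ac of −log10 q 17.3, 25.8 and 40.03 at the stages in turn. In lA this was the strongest peak of the locus, at percentile 93.1. Another, 60.3 kb past the innermost starts, was the strongest in aNPC (25.4) and eA (40.6) and had 7.38 in lA. Its lead was narrow, the next strongest elements having 24.1 in aNPC and 39.1 in eA. The leading intronic site was therefore a different one in lA than in aNPC and eA. Of the rest, 49 elements had H3K4me1 alone, 5 had H3K27ac in lA and not aNPC, 5 the reverse, and 4 had it in eA alone. The late one with the strongest lA peak lay 144.2 kb past the innermost starts (7.35 in eA and 12.2 in lA, none in aNPC), with H3K4me1 in aNPC (7.18) and eA (9.84) and none in lA. The 100 bp on each side of the lA summits of the element near the inner start (chr5:89359203-89359403) and of this late element (chr5:89601121-89601321) are shown as the strongest and the strongest late H3K27ac of the locus in lA (mm9, plus strand, no motif core):
Slc4a4, near the inner start: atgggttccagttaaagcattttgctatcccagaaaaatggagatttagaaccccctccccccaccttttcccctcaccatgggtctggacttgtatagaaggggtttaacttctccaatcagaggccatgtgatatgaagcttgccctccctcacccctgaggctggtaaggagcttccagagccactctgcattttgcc
Slc4a4, late element: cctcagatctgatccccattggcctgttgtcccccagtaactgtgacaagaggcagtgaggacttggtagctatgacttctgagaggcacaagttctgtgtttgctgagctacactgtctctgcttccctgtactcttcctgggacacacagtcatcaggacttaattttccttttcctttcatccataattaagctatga

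**Figure D2:**
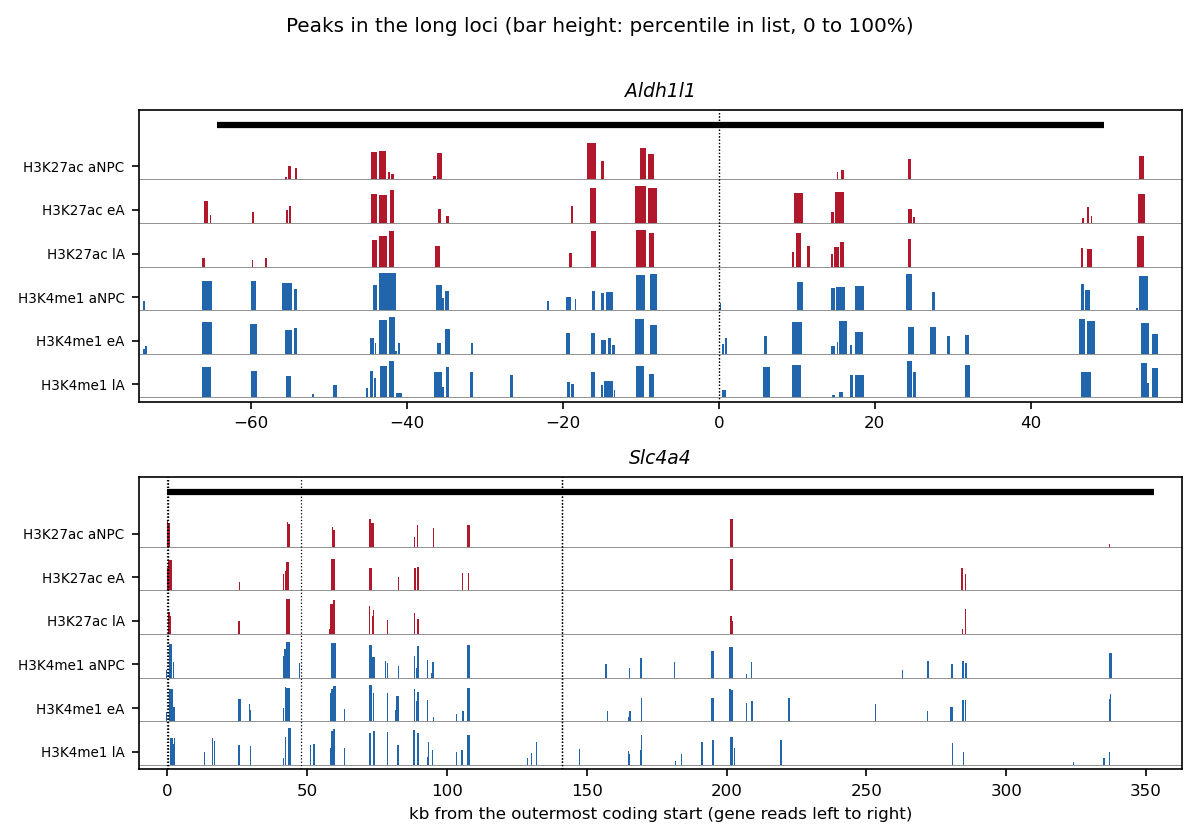
Peaks (bars, as wide as the peak and as high as its percentile in its list) of H3K27ac (red) and H3K4me1 (blue) at each stage in the loci of Aldh1l1 and Slc4a4, against kb from the outermost coding start, with the gene body as a black line and coding starts dotted. In Aldh1l1 no H3K27ac bar lies within 7.94 kb of the coding start, and in Slc4a4 H3K4me1 bars outnumber H3K27ac bars at every stage (46 against 16 in aNPC).

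Atp1b2 encodes the beta 2 subunit of the sodium-potassium ATPase, an adhesion molecule of glia. Its gene (ENSMUSG00000041329.7, chr11:69413238-69419444, minus strand) had the most densely marked locus, with 16.4%, 21.5% and 19.5% of it under H3K27ac peaks in aNPC, eA and lA. The promoter peak started near the outer coding start and had −log10 q 36.9 in aNPC (percentile 79.7), 65.5 in eA (percentile 89.9) and 29.6 in lA (percentile 88.3). H3K4me1 at the outer start was 17.4 in aNPC, and the nearest such peaks in eA and lA were 2.1 and 2.15 kb away. In eA and lA promoter H3K4me1 lay at the inner start, which had no promoter H3K27ac peak. The strongest H3K27ac peak lay over an exon towards the end of the gene, chr11:69413874-69414620 in aNPC, and had −log10 q 91.4 (percentile 92.2), 88.3 in eA (percentile 93.7) and 73.0 in lA (percentile 98.4). It was thus stronger than the promoter peak in each of the lists. In all, 5 of the 8 elements of Atp1b2 had H3K27ac at every stage.

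One Atp1b2 element, 5.0 kb upstream, had H3K27ac in eA (18.1) and lA (7.34) and none in aNPC, with H3K4me1 of 6.03, 16.3 and 14.2 at the stages in turn. The 100 bp on each side of its lA summit are shown as the late site of the gene (chr11:69424711-69424911, mm9, plus strand, no motif core):
Atp1b2, 5.0 kb upstream: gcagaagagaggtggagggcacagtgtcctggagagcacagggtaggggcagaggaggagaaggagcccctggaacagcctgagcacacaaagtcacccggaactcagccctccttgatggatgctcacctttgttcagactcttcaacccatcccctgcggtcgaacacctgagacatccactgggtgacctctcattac

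**Figure D3:**
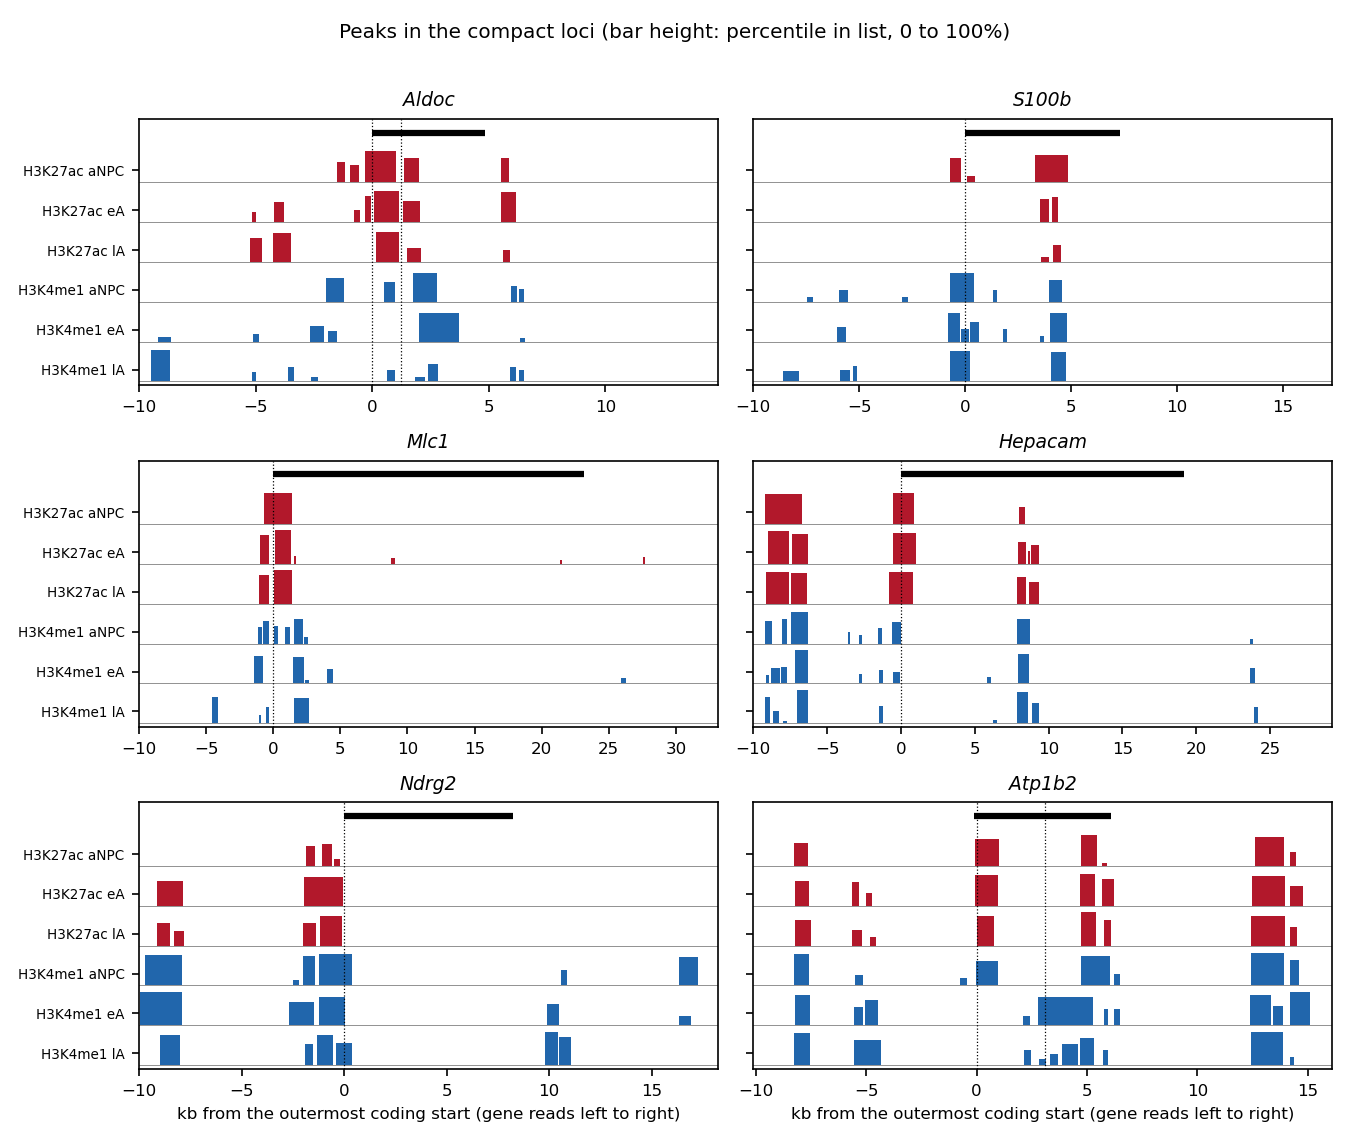
Peaks in the loci of the other 6 genes, drawn as in the map of the long loci, against kb from the outermost coding start with each gene reading left to right. S100b has H3K27ac at its start in aNPC alone, Mlc1 and Hepacam keep a block of H3K27ac at the start in every list, and Aldoc has upstream H3K27ac 3.8 and 5 kb away in eA and lA.

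Over all 8 loci there were 54, 75 and 66 H3K27ac peaks at the stages aNPC, eA and lA, and 115, 129 and 142 H3K4me1 peaks. With lists of equal length for a mark the H3K4me1 peaks numbered 115, 117 and 110, so that the higher count in lA than in aNPC was not kept. In lA 12 of the 66 H3K27ac peaks stood at or above percentile 90 of their list (18.2%), in aNPC 5 of 54 (9.26%) and in eA 8 of 75 (10.7%). The percentile itself sets the share that a whole list has at that rank. The loci were close to that share in aNPC and eA, and above it in lA. The peaks of that rank belonged to 5 genes in each list. Aldh1l1, Mlc1, Hepacam and Atp1b2 were among them at every stage, Aldoc in the lists of aNPC and eA, and Slc4a4 in that of lA. S100b and Ndrg2 had no H3K27ac peak of that rank.

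As shares of the loci, the members had more of both marks than a typical coding gene. The median over the 8 genes was 7.68%, 10.6% and 9.36% under H3K27ac in aNPC, eA and lA, against medians over coding genes of 2.53%, 2.90% and 2.74%. For H3K4me1 it was 11.1%, 13.1% and 12.4%, against 5.33%, 6.32% and 6.53%. Slc4a4 lay below the H3K27ac median of coding genes in aNPC (2.22%) and lA (2.51%), and S100b lay below it in eA and lA. Mlc1 was the member below the H3K4me1 median in eA (5.83%) and lA (4.81%).

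**Figure D4:**
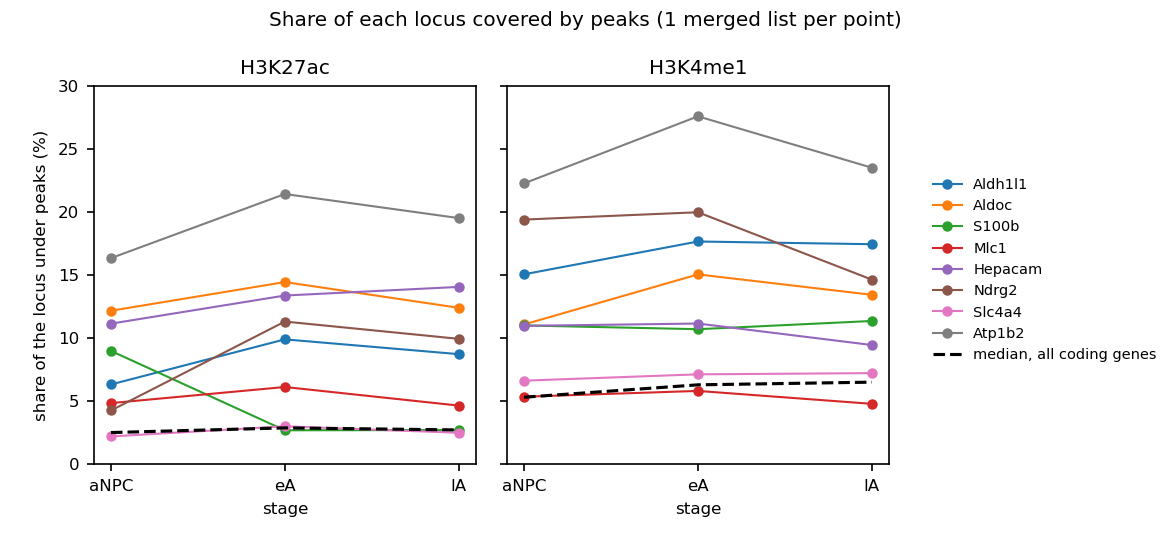
Share of each locus (gene body and 10 kb on each side) under peaks of H3K27ac (left) and H3K4me1 (right) in percent at each stage, 1 line per gene and a dashed line for the median of all coding genes, each point being 1 merged list without replicate error. Atp1b2 is highest for both marks at every stage, and S100b goes from 9.01% under H3K27ac in aNPC to 2.71% in eA.

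The 157 elements were then sorted by their H3K27ac. Among them 29 had it at every stage (18.5%), against 15.5% of 167681 elements within 10 kb of coding genes. Late elements, with H3K27ac in lA and none in aNPC, numbered 16 (10.19%), against 12.2%. The reverse was found at 11 (7.01%), against 9.83%. H3K27ac in eA alone was found at 9 (5.73%), against 4.42%. The remaining 92 had H3K4me1 alone (58.6%), against 56.8%. Since Slc4a4 gave 69 of the elements, the shares were also taken over the 88 elements of the other genes. There 23 had H3K27ac at every stage (26.1%), 11 were late (12.5%), and 43 had H3K4me1 alone (48.9%).

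Of the 16 late elements 10 had H3K4me1 in aNPC (62.5%), against 49.5% of the 20539 late elements at all coding genes. They belonged to 5 genes, with 7 in Aldh1l1, 5 in Slc4a4, 2 in Aldoc and 1 each in Ndrg2 and Atp1b2. By position 11 were in introns and 5 upstream, and 13 already had H3K27ac in eA (81.2%), against 49.2% of the late elements at all coding genes. Their lA −log10 q ran from 3.69 to 34.2 with a median of 7.47. Of the 29 constant elements 25 also had H3K4me1 at every stage (86.2%), against 87.3% of such elements at all coding genes.

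The study designed qPCR primers within 2 of the genes, which were placed on mm9 by exact match, each primer having 1 site in the genome. The pair labelled as the Aldh1l1 promoter is printed to show where that assay reads.
Aldh1l1 promoter pair, forward: agaggtgggcacagttaagc
Aldh1l1 promoter pair, reverse: ggtcctctctcacgattgct
S100b promoter pair, forward: ggacagagagatgaaggtttgg
S100b promoter pair, reverse: ttccccaggagggatgac
The Aldh1l1 promoter amplicon lies at chr6:90460372-90460434, 40380 bp upstream of the outer coding start and inside an intron of the noncoding transcript, and no peak of any list overlapped it. The nearest peaks were H3K4me1 in lA at 236 bp and H3K27ac in eA at 1220 bp. The first Aldh1l1 distal amplicon (chr6:90487334-90487395) lay in H3K4me1 peaks of eA (−log10 q 4.82) and lA (4.56) and in no H3K27ac peak. The second (chr6:90489615-90489674) lay in no peak, with H3K27ac 395 bp away in eA. The S100b promoter amplicon (chr10:75717254-75717313) was centred 685 bp past the start, in no peak, with the nearest H3K4me1 at 30 bp in eA and the nearest H3K27ac at 202 bp in aNPC. The sheared chromatin of the study was longer than these amplicons, so an amplicon outside a called peak can still read nearby marked fragments. The study reported by ChIP-qPCR that H3K27ac rose with differentiation at several astrocyte genes, near their promoters and away from them.

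None of the study's consensus motifs for NF1 (the half-site CTGCCAAG or TTGCCAAG, and the full site), Atf3, RUNX (GCTGTGGTTA or GCTGTGGTTT) and Stat3 (CTTCCGGGAA) was matched on either strand in the 8 upstream windows or in 10 summit windows of the members' distal elements. Such exact matches are rare, the half-site being found at 2.48% of all lA H3K27ac summits and the others at less. Shorter cores were then searched on both strands, a choice made after that result was seen. TTGGCA, which overlaps the half-site, was in 1 of the 10 summit windows, against 11.0% of all lA summits. TGTGGTT was in 1 of 10, against 3.93%, and both matches were in the S100b window. TGACTCA or TGAGTCA (AP-1) and TTCCNGGAA (STAT) were in none, against 3.49% and 0.694% of all lA summits.

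The promoters of 26 relatives and partners of the members were read in the same lists. H3K27ac was found at 14, 15 and 12 of them at the stages aNPC, eA and lA, and H3K4me1 at 18, 17 and 16. At 12 of the 26 H3K27ac was present at every stage, a pattern of 45.2% of coding genes, and at 11 at none. The H3K27ac counts are 53.8%, 57.7% and 46.2% of the relatives, against the 50.6%, 53.2% and 48.2% of coding genes given above. The H3K4me1 counts are 69.2%, 65.4% and 61.5%, against 55.4%, 53.6% and 52.7%. As for the members, no relative had H3K27ac in lA without aNPC. Aldoa, the muscle form of aldolase, had H3K27ac at every stage (−log10 q 86.1, 101 and 75.7) like Aldoc. Aldh1l2, the mitochondrial counterpart of Aldh1l1, had promoter H3K27ac of 174, 34.3 and 32.5 at the stages in turn where Aldh1l1 had none. Of the S100 genes read, S100a10 (58.1, 85.6 and 58.0) and S100a16 (8.02, 14.1 and 20.1) had it at every stage and 4 others at none.

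Clcn2, the chloride channel that binds GlialCAM, had promoter H3K27ac of 53.3, 27.8 and 32.0, and Hepacam2 had neither mark. Ndrg1 and Ndrg3 had H3K27ac at every stage and Ndrg4 in eA alone (31.2). Among the bicarbonate transporters Slc4a2, Slc4a3, Slc4a7 and Slc4a8 had H3K27ac at every stage and Slc4a1, Slc4a5 and Slc4a10 at none. The other beta subunits of the sodium-potassium ATPase that were read, Atp1b1 and Atp1b3, had H3K27ac in aNPC and eA and none in lA, so that of these beta subunits Atp1b2 alone had a promoter peak in lA.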

How the data were processed

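H3K27ac and H3K4me1 ChIP-seq of aNPC, eA and lA was deposited as 6 peak lists, each from 2 merged replicates. The authors aligned the reads uniquely to mm9 with Bowtie, merged replicates with SAMtools 0.1.19 and called peaks with MACS2 at default settings without an input. From the deposited lists the position, the −log10 of the q-value at the summit and the summit offset (another value the authors' caller wrote, in bp from the peak start) were used. Depth is unknown, so no interval was computed. Peaks on chrM were left out.

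Genes came from GENCODE M1 on NCBIM37, the assembly of mm9, from which sequence was read. A locus was the gene body with 10 kb on each side, a promoter 1000 bp upstream to 100 bp downstream of a coding start, and an overlap 1 bp. Elements were unions of overlapping peaks of all lists. All 8 members were described, with their promoter peaks, strongest peaks and strongest late distal element. The members and lists were chosen with earlier results of these data known. No test was made, because 1 list stands for each mark and stage. Alternatives were a −log10 q of at least 5, equal list lengths, summits, other flanks and promoters, and leaving out Slc4a4 or peaks at other promoters. The overlap code was tested on simulated data. Of 51 samples, 8 RNA-seq libraries were not assigned because their labels conflict, and RNA-seq and knockdown samples were not analysed here. Python 3.11.15, NumPy and matplotlib were used. Values of some relatives are not reported here.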

Additional observations from a re-analysis of the deposited data

How the results depend on the processing

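No paired analysis was possible because both replicates of a stage were merged before peaks were called, and for the same reason no replicate could be left out. With peaks of −log10 q of at least 5, and with equal list lengths, all 18 counts that were rerun (members with a promoter peak, peaks in the loci and element classes) stayed within 1.5 times their value, as did the counts under a flank of 0 or 20 kb, a promoter of 1 kb on each side of any start, and without peaks at other promoters. At equal list lengths, however, the H3K4me1 peaks of the loci numbered 115, 117 and 110, which turns the order of aNPC and lA. The promoters of any start nevertheless gave Aldh1l1 H3K27ac at every stage, through the start of a noncoding transcript inside the gene and not through the width. Asking for the summit inside the promoter left 4, 4 and 3 members with H3K27ac at the successive stages, the members lost being Mlc1, Hepacam and Atp1b2 in aNPC and Hepacam, Slc4a4 and Atp1b2 in lA. Without Slc4a4 there were 69, 82 and 81 H3K4me1 peaks in aNPC, eA and lA, 23 of 88 elements with H3K27ac at every stage, 43 with H3K4me1 alone, 6 with H3K27ac in aNPC and not lA, and 5 with H3K27ac in eA alone. Starting Aldh1l1 at its coding start, chosen after seeing the data, left 12 late elements and 25 constant ones. The unknown depth limits every statement about a missing peak.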
